A study of Mus musculus with 62 samples.

Results

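The muscle microRNA genes Mir1a-1, Mir1a-2, Mir133a-1, Mir133a-2, Mir133b, Mir206, Mir208b and Mir499 were followed through the histone mark maps of mouse skeletal muscle. Members were the peaks whose gene name, which the annotation gives by the nearest transcription start site (TSS), was 1 of these 8 genes. There were 80 such peaks among 601616 regions, of which 79 lay in the 16 lists of peaks per muscle group and 1 in the 4 lists of regions that differed in acetylation. 7 of the 8 genes had at least 1 peak named for them, and Mir208b had none. Of the 79 peaks, 35 were H3K27ac peaks (among 297760) and 44 were H3K4me2 peaks (among 298522). Other microRNA genes gave their names to 18469 regions.

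The marks were mapped by ChIP-seq in C57BL/6 male mice (C57BL/6J for the wild-type mice, per the methods), each mark in 8 groups of 2 replicates. The first 4 groups, the extensor digitorum longus (EDL), the quadriceps (Quad), the soleus (Sol) and the diaphragm (Dia), came from wild-type sedentary mice, and the EDL, Sol and Dia samples each pooled 3 animals. Quadriceps of wild-type mice caged from 8 weeks of age for 4 weeks without wheels (Sed) or with running wheels (Ex, taken 4 to 6 h after the last bout) formed a pair of groups. Another pair was quadriceps of sedentary PGC1a Tg(+) mice, which carry Pgc1a under the muscle creatine kinase promoter (mTg), and of their wild-type littermates (Wt). Each quadriceps sample was from 1 animal, and the ages of the other groups at harvest are not given in the sources used here. Whole muscle was used, so a smaller share of fibers of a type and less of the mark per fiber cannot be told apart.

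MicroRNAs are short RNAs cut from hairpin transcripts that pair with messenger RNAs through their seed, the bases near the 5′ end, and lower the output of those messengers. The muscle members are known as myomiRs: miR-1 and miR-133 are made from paired hairpins on shared transcripts in skeletal and cardiac muscle, miR-206 and miR-133b from a skeletal muscle locus within the noncoding RNA gene Lincmd1 (Linc-md1), and miR-208b and miR-499 from introns of the slow myosin heavy chain genes Myh7 and Myh7b. Acetylation of histone H3 at lysine 27 (H3K27ac) is found at enhancers and promoters in use, and dimethylation at lysine 4 (H3K4me2) at enhancers and promoters in use or primed. A mark at a microRNA gene describes its chromatin and not the amount of the mature microRNA, which was not measured.

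The mature sequences show how the members are related, so sequences are given for Mir1a-1, Mir206, Mir133b, Mir499 and Mir208b (RefSeq, GRCm38.p6; 5′ to 3′, seed bases 2 to 8 in capitals). 5 of the 8 genes had mature entries in the table used, 9 in all.
miR-1a-1-5p: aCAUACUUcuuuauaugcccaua
miR-206-5p: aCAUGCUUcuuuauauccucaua
miR-206-3p: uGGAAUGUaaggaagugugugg
miR-133b-3p: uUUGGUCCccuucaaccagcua
miR-499-5p: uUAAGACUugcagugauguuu
miR-208b-3p: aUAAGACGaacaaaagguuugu
The 5p strands of miR-1a-1 and miR-206 were the same at 20 of 23 positions and at 6 of the 7 seed positions. The table used had no 3p entry for Mir1a-1. The 3p strands of miR-1 and miR-206 were therefore not compared, and the 5p match does not describe their 3p seeds. miR-499-5p and miR-208b-3p, which come from introns of different myosin genes, shared 6 of the 7 seed bases but only 10 of the 21 bases compared.

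Genomic sequence is shown for a pair of places where the coactivator subunit MED1 had a site in Quad. The first is the promoter window of Mir1a-1hg, the host gene of Mir1a-1 and Mir133a-2, at chr2:180385354-180385653 on the plus strand (GRCm38.p6, the same coordinates as the mm10 lists), with matches to the E-box CANNTG, the motif of MyoD-type factors, in capitals.
Mir1a-1hg promoter: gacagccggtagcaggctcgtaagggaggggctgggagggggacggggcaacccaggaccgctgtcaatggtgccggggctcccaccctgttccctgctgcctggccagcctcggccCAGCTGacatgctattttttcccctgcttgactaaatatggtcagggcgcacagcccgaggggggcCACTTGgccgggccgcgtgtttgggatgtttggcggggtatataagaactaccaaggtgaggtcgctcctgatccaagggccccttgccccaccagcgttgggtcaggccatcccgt
It held 2 E-boxes, CAGCTG at base 118 and CACTTG at base 184. The MED1 site, chr2:180385579-180385789, overlaps only the 3′ end of this window, and both E-boxes lie outside it. Of 32851 RefSeq promoter windows of the same length, 72.3% held an E-box and 16.3% held CAGCTG on either strand. The MEF2 motif (CTA and TAG with 4 free bases between) and the CArG box of serum response factor, present in 3.69% and 1.63% of windows, had no match. The second is the MED1 site nearest Mir499, at chr2:155629498-155629708, plus strand, in exon 29 of Myh7b.
MED1 site at Mir499: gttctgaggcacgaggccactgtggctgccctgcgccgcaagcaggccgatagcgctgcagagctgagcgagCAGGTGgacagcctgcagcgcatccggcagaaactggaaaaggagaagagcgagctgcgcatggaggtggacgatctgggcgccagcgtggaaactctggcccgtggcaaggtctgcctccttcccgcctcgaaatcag
It held 1 E-box, CAGGTG at base 73, and 60.8% of the 3593 Quad MED1 peaks held any E-box. A match of letters is not a bound site.

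Libraries had 11.7 to 24.2 M tags for H3K27ac and 6.41 to 22.7 M for H3K4me2 (median 19.5 M for each). Replicate 1 of mTg H3K4me2 was the shallowest at 6.41 M, and the mTg H3K4me2 list was the shortest of the 16 with 27527 peaks. Levels are log2 normalized tags from lists that were each normalized alone, so levels of different groups are set side by side without a test. Where groups are compared, the level per kb of peak was centred, that is, taken relative to its own library's median over the regions with a peak in all 8 groups (13847 for H3K27ac and 17051 for H3K4me2). The muscle labels were checked by markers with an H3K27ac peak. All 4 slow fiber markers (Myh7, Tnni1, Tnnc1, Tnnt1) had one in Sol and Dia and 1 or 2 of them elsewhere, 4 or 5 of the 5 fast fiber markers had one in every group, and neither cardiac marker (Myh6, Nppa) had one in any group. Endothelial markers had one for 4 of 4 genes and fibroblast markers for 3 of 3 in every group, leukocyte markers for 2 to 4 of 4, satellite cell markers for 1 or 2 of 2 and adipocyte markers for 1 or 2 of 2. Ppargc1a (Pgc1a) itself named 16 H3K27ac peaks in Wt and 13 in mTg, which does not check the transgene, since those peaks lie at the resident gene.

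The Mir1a-1 and Mir133a-2 cluster lay in 1 of the broadest acetylated domains of the genome. Merged over the 8 groups, the H3K27ac peaks there spanned chr2:180356134-180399983, 43.9 kb and the 15th widest of 63441 regions. The hairpins are at chr2:180389048-180389124 and chr2:180398379-180398482 on the plus strand, within Mir1a-1hg, and the domain began upstream of that gene. In Quad a single peak of 39.8 kb was the 2nd widest of 40949 and the 10th highest, with levels of 12.65 and 12.54 in its replicates. In EDL a peak of 41.7 kb was the 2nd widest of 35750, at 13.11 and 13.08, and in Sed one of 38.0 kb was the 3rd widest of 34031, at 12.36 and 12.20. In those groups nearly the whole domain was 1 peak, and its name was Mir1a-1hg.

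**Figure D1:**
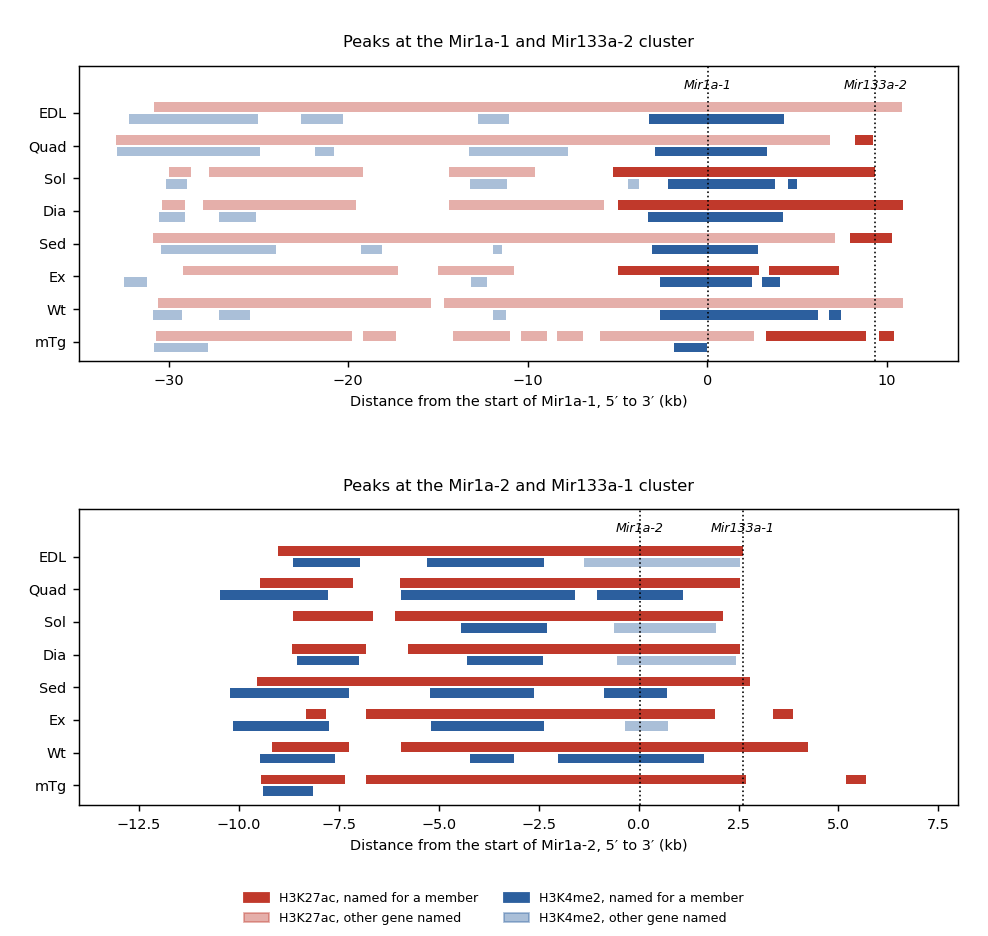
Peaks of H3K27ac (red) and H3K4me2 (blue) in the 8 groups around Mir1a-1 (top) and Mir1a-2 (bottom), by distance in kb from the start of the hairpin in the direction of transcription. Dark bars are peaks named for a member and pale bars peaks named for another gene, dotted lines mark the hairpins, and H3K27ac covered both miR-1 hairpins in all 8 groups.

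In the other groups the domain was broken into several peaks. Over the whole domain, 4 peaks were called in Sol, 4 in Dia, 4 in Ex and 8 in mTg, covering 29.2, 34.4, 28.1 and 33.9 kb, against 40.8 kb in 2 peaks in Wt. The peak over Mir1a-1 itself had levels of 11.90 and 11.95 in Dia (chr2:180384080-180399945, the 89th highest of 33106), 11.31 and 10.99 in Sol (chr2:180383780-180398379, the 136th of 34173) and 9.78 and 9.22 in Ex (chr2:180384060-180391958, the 1246th of 34572). So by total level the peak that holds the miR-1 hairpin was much further down the order in Ex than in the other 7 groups, where it ranked from 10th to 195th. That rank depends on width, which was 7.90 kb in Ex and 38.0 kb in Sed. Per kb the gap was smaller, with this peak at the 73.7th percentile in Ex, the 82.3rd in Sed, the 92.2nd in Sol and the 93.1st in Dia. Only where the domain was split did Mir1a-1 give its name to an H3K27ac peak (3 peaks, in Sol, Dia and Ex), and Mir133a-2 named 5 pieces of 837 to 5552 bases beyond it (Quad, Sed, Ex and mTg), while the peaks over Mir1a-1 in Wt and mTg carried the name B230312C02Rik.

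H3K27ac overlapped the Mir1a-1 hairpin in 8 of 8 groups and the Mir133a-2 hairpin in 5 (EDL, Sol, Dia, Sed and Wt), where the Sol peak ended on its first base. H3K4me2 was narrower. Its region at chr2:180385738-180395236 had a peak in all 8 groups, 5.15 to 8.83 kb wide at its widest peak in 7 of them and 1.80 kb in mTg (chr2:180387228-180389025), where it stopped 23 bases short of the Mir1a-1 hairpin. No H3K4me2 peak reached Mir133a-2 in any group, and the nearest edge was 1874 to 9354 bases away.

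Mir1a-2 and Mir133a-1, the second cluster, sit head to tail on the minus strand inside introns of Mib1, a ubiquitin ligase gene of Notch signalling, at chr18:10785481-10785552 and chr18:10782909-10782976. Its H3K27ac region (chr18:10781304-10795097, 13.8 kb) was in all 8 groups, and its main peak ran from several kb upstream of Mir1a-2 to near the Mir133a-1 hairpin or past it. The main peak ranked 127th to 266th by level in 7 groups and 910th in Ex. Per kb it lay at the 99.7th percentile of its list in Quad, the 98.6th in EDL, the 97.7th in Sol and the 97.4th in Dia. In the other quadriceps groups it was at the 96.7th in Wt, the 96.6th in mTg, the 93.0th in Sed and the 75.01st in Ex. Per kb of the region, log2 levels were 7.96 and 7.98 in Quad, 7.58 and 7.49 in Sed and 6.79 and 6.19 in Ex.

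Mir1a-2 named more peaks than any other member, 17 of H3K27ac and 22 of H3K4me2, in all 8 groups. H3K27ac covered its hairpin in 8 groups and the Mir133a-1 hairpin in 4 (EDL, Sed, Wt and mTg). H3K4me2 covered the Mir1a-2 hairpin in 7, and in mTg the nearest H3K4me2 peak was 8143 bases away, in the shallow list described above. In EDL, Sol, Dia and Ex the H3K4me2 peak over the hairpin was named Mir1b, the antisense gene at the same place, and so is not among the 44. Mir133a-1 named only 2 H3K27ac peaks of 501 bases, in Ex and mTg, and no H3K4me2 peak.

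Away from the hairpins, Mir1a-2 also named intergenic peaks centred 54.4 to 84.1 kb upstream. H3K27ac peaks there were called in Dia (chr18:10837640-10842806 at 8.17 and 7.50, and a second of 950 bases) and in EDL (chr18:10866636-10867422 at 4.59 and 4.77), with H3K4me2 peaks in Dia, EDL, Sol and Wt. No group had all of them.

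Mir206 and Mir133b lay in a weaker locus whose mark differed between muscles. The hairpins are at chr1:20679010-20679082 and chr1:20682769-20682887 on the plus strand, and the H3K27ac region common to all 8 groups, chr1:20666165-20675957, lies upstream of both, over the start of Lincmd1. In Sol it was a single peak of 9.13 kb at 10.10 and 9.65, the 1064th highest of 34173. In every other group it was 1 to 3 smaller peaks, covering 1.48 kb in mTg to 7.75 kb in Dia.

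Sol was the one group with acetylation over the Mir206 hairpin itself. That promoter peak, chr1:20677501-20679101, had levels of 5.62 and 5.67, which are low (25517th of 34173), and was joined by an H3K4me2 peak at chr1:20677511-20678272 (4.05 and 4.50). Regions called in Sol alone made up 2.63% of all H3K27ac regions and 2.24% of all H3K4me2 regions. Mir133b named 2 H3K27ac peaks downstream of both hairpins, near chr1:20691221-20692251, at 5.36 and 5.08 in Sol and 4.59 and 4.04 in Quad. Regions called in Quad and Sol only made up 0.370% of the total. H3K4me2 over Lincmd1 was called in EDL, Sol, Dia, Ex, Wt and mTg, while the nearest H3K4me2 peak to Mir206 was 44234 bases away in Quad and 139993 in Sed.

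**Figure D2:**
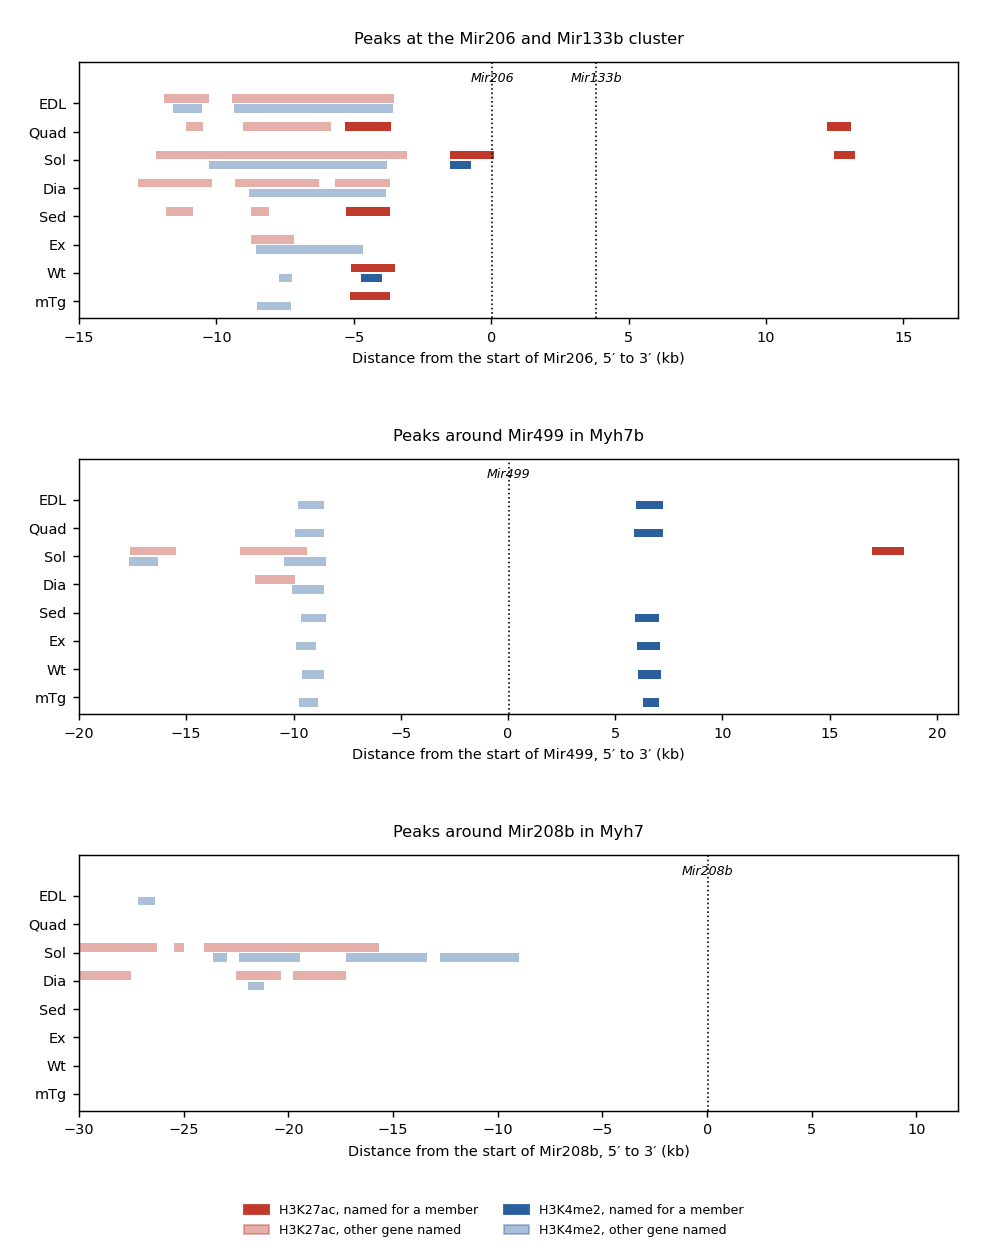
Peaks of H3K27ac (red) and H3K4me2 (blue) in the 8 groups around Mir206 and Mir133b (top), Mir499 (middle) and Mir208b (bottom), by distance in kb from the start of the first hairpin in the direction of transcription. Dark bars are peaks named for a member, pale bars peaks named for another gene and dotted lines hairpins, and Sol was the only group with a peak over Mir206.

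The slow myosin microRNAs had no mark over their hairpins in any group. Mir499 lies in Myh7b at chr2:155622880-155622958, plus strand. Its 6 H3K4me2 peaks formed 1 region at exon 29 of Myh7b, chr2:155628775-155630099, about 6 kb downstream of the hairpin, in EDL, Quad, Sed, Ex, Wt and mTg. Levels in replicates 1 and 2 were 6.37 and 6.08 in EDL, 5.21 and 5.60 in Quad, 5.76 and 5.98 in Sed, 5.31 and 5.38 in Ex, 5.48 and 5.35 in Wt and 5.57 and 4.92 in mTg. The muscles without it were Sol and Dia, and regions called in all groups but those 2 made up 0.244% of H3K4me2 regions. At the Myh7b start, upstream H3K27ac peaks within 25 kb of Mir499 were called in Sol (the nearer of 2 at chr2:155610406-155613516, at 7.92 and 7.77) and Dia (chr2:155611079-155612956 at 6.00 and 6.09) and in no other group. Regions called in Sol and Dia only made up 0.517% of H3K27ac regions. H3K4me2 in the first introns of Myh7b was called in all 8 groups. Mir499 also named 1 H3K27ac peak in Sol, chr2:155639872-155641341, at 5.91 and 5.42, downstream of Myh7b.

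Mir208b, at chr14:54975700-54975776 on the minus strand in Myh7, named no peak of either mark, and the nearest H3K27ac edge was 15690 to 48688 bases away over the 8 groups. Myh7, the myosin of slow fibers, had H3K27ac peaks within 25 kb of it in Sol (chr14:54991466-54999824, 8.36 kb, at 9.68 and 9.41, the 1658th highest of 34173) and in Dia (2 peaks, at 6.41 and 6.56 and at 6.80 and 6.91). It had 4 H3K4me2 peaks in Sol and 1 in Dia. The other 6 groups had no Myh7 peak within 25 kb, though in EDL an H3K4me2 peak named Myh7 lay just past that window, 26391 bases away. Sol and Dia are also the groups in which all 4 slow fiber markers, Myh7 among them, had an H3K27ac peak (median percentile of the strongest peak per kb 80.3 in Sol and 40.6 in Dia), and the part of fiber makeup in the Mir206, Mir499 and Mir208b values was not tested.

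Levels at the regions were then compared between groups. Groups were called over 2-fold apart at a region where their mean centred levels differed by more than 1 on the log2 scale and their replicates were fully separated. Of 10 H3K27ac member regions, 3 were called in all 8 groups and 6 in a single group, and of 13 H3K4me2 regions 1 and 7. For the whole genome, 21.8% of H3K27ac and 25.7% of H3K4me2 regions were in all 8 groups and 29.4% and 27.9% in 1.

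At the Mir1a-1 and Mir133a-2 domain, centred H3K27ac levels in replicates 1 and 2 were 0.76 and 0.68 in EDL, 0.69 and 0.59 in Quad, 0.64 and 0.38 in Sol and 0.48 and 0.56 in Dia. They were 0.36 and 0.14 in Sed, -0.23 and -0.52 in Ex, 0.49 and 0.45 in Wt and 0.56 and 0.54 in mTg. Ex was the only group below 0. From Wt (mean 0.47) upward, the order was Sol, Dia, mTg, Quad and EDL (0.72), and the replicates of neighbours in that order overlapped, except those of mTg (0.55) and Quad (0.64).

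At the Mir1a-2 and Mir133a-1 region they were 1.27 and 1.28 in EDL, 1.34 and 1.36 in Quad, 0.98 and 0.84 in Sol and 0.96 and 1.12 in Dia. They were 0.87 and 0.73 in Sed, 0.18 and -0.21 in Ex, 0.77 and 0.83 in Wt and 0.99 and 1.08 in mTg. Quad was highest (1.35 ± 0.018, SD, n = 2) and Ex lowest (-0.02 ± 0.28), and the Ex replicates lay below those of every other group. Both miR-1 clusters thus had the same lowest group.

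At the Mir206 region upstream they were 0.33 and -0.10 in Sol and -0.27 and -0.74 in Dia, the highest groups. EDL had -0.87 and -1.02, Quad -0.67 and -1.29, Wt -1.19 and -1.24 and Ex -0.96 and -1.59. Sed, at -1.43 and -1.53, and mTg, at -1.64 and -1.86, were lowest. Sol lay above every other group in both replicates, and Dia overlapped only with Quad.

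**Figure D3:**
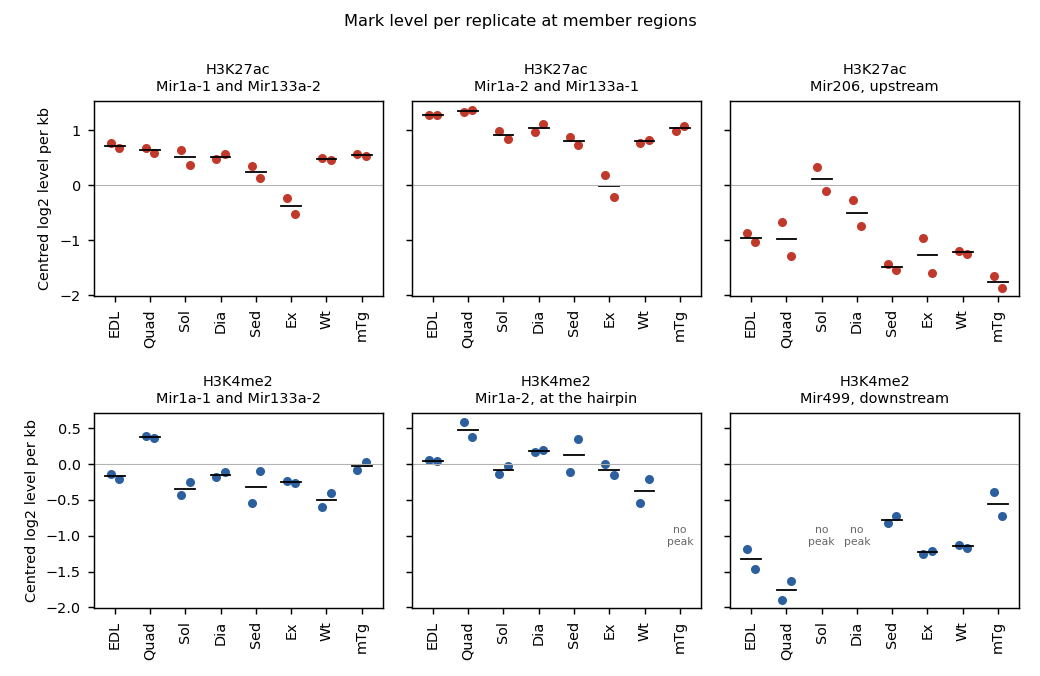
Centred log2 level per kb at 3 H3K27ac (top) and 3 H3K4me2 (bottom) member regions in the 8 groups. Points are the 2 replicates, lines their means and the grey line the median region, and in the top row Ex is lowest at both miR-1 clusters and Sol highest at Mir206.

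In Sol against Quad, 2 of 4 shared H3K27ac member regions were over 2-fold apart, beside 5.88% of all shared regions. Both were higher in Sol, the Mir206 region by 1.09 (2.13-fold, the 97.2nd percentile of all differences) and the Mir133b region by 1.12 (2.18-fold, the 97.5th). The Mir1a-2 cluster stood at -0.44 and the Mir1a-1 cluster at -0.13. With each library centred on its whole list, neither of the called regions passed (0.76 and 0.79), nor did they without replicate 2 of each group (0.996 and 0.987), and relative to input the Mir133b difference was 0.04.

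In Dia against Quad 0 of 3 shared H3K27ac member regions were over 2-fold apart (all regions 6.1%) and in EDL against Quad 0 of 3 (1.36%), with differences from -0.31 to 0.47 and from -0.07 to 0.08. These 3 comparisons share the Quad libraries. In Ex against Sed the count was 0 of 3 (3.4%). The Mir1a-2 cluster stood at -0.82 and the Mir1a-1 cluster at -0.63, the 3.29th and 7.10th percentiles of all differences, and with levels not divided by width both passed, at -1.09 and -1.08. For mTg against Wt the count was 0 of 3 (7.49%), with 0.24 for the Mir1a-2 cluster, 0.08 for the Mir1a-1 cluster and -0.54 for Mir206. In Sed against Wt, both untreated quadriceps like Quad, the count was 0 of 3 (1.53%), with differences from -0.27 to 0.00. Quad was not compared with either, and its centred replicates lay above those of both at the miR-1 clusters. At the Mir1a-2 cluster they were 1.34 and 1.36, against 0.87 and 0.73 in Sed and 0.77 and 0.83 in Wt. Sol, at 0.98 and 0.84 there, overlapped Sed. At the Mir1a-1 cluster Quad had 0.69 and 0.59, against 0.36 and 0.14 in Sed and 0.49 and 0.45 in Wt.

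For H3K4me2 the counts were 0 of 2 in Sol against Quad (2.82% of all shared regions), 0 of 3 in Dia against Quad (2.61%), 0 of 4 in EDL against Quad (1.03%), 0 of 4 in Ex against Sed (0.442% of shared regions), 1 of 4 in mTg against Wt (1.59%) and 0 of 4 in Sed against Wt (4.6%). The Mir1a-1 cluster stood at -0.72 in Sol, -0.52 in Dia and -0.55 in EDL against Quad, without passing 2-fold. Quad was the highest group there, at 0.39 and 0.36. The other untreated quadriceps were lower, with Sed at -0.55 and -0.09 and Wt at -0.60 and -0.40. By mean, Sol, Dia and EDL lay between Quad and Wt. The part of muscle and of library set in these differences was not tested. At Mir499, H3K4me2 stood at 0.44 in EDL against Quad, -0.46 in Ex against Sed and at 0.59 for mTg against Wt. The called region was the Mir1a-2 region at chr18:10792535-10796031, lower in mTg, with a difference of -1.20 (-2.33 and -1.65 in mTg against -0.83 and -0.74 in Wt). It did not pass without replicate 1 of both groups (-0.91), that of mTg being the library of 6.41 M tags. It stood at 0.83 when levels were taken over input.

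**Figure D4:**
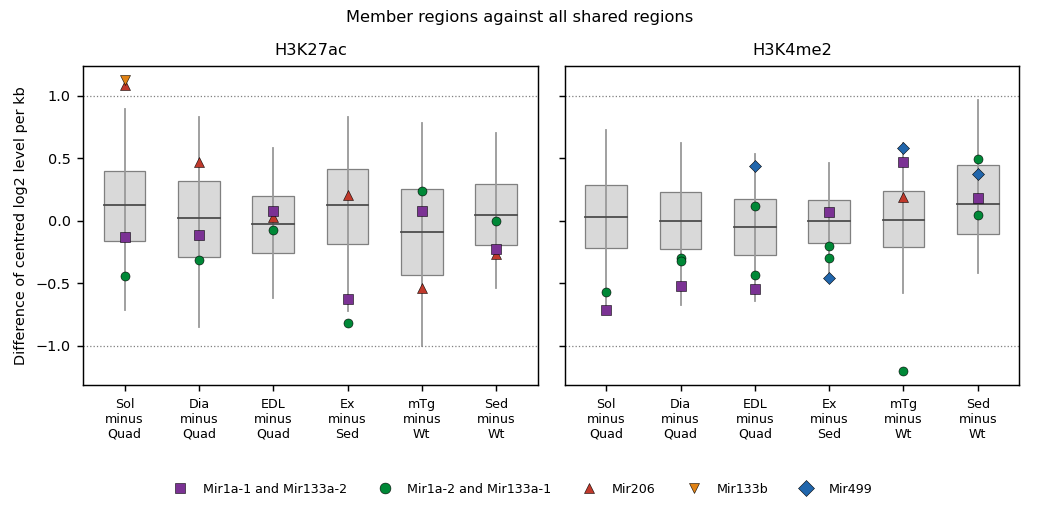
Difference in centred log2 level per kb for 6 pairs of groups, for H3K27ac (left) and H3K4me2 (right). Boxes show the quartiles and median, and whiskers the 5th to 95th percentiles, of all regions shared by a pair, coloured symbols are member regions and dotted lines 2-fold, and the symbols beyond the lines are Mir206 and Mir133b in Sol minus Quad and Mir1a-2 in mTg minus Wt.

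The regions of changed H3K27ac allowed a test, since all 4 libraries of a comparison were normalized together there. These regions are on the lists because the authors found them to differ, so the test is no independent evidence. Its SE was the same at both regions below, a spread pooled over the whole list. The adjusted p-values therefore follow the size of the difference and do not measure the replicate spread of a single region. Among exercise-modified regions (EMRs), the Mir1a-2 region at chr18:10782755-10795097 was hypoacetylated, at 10.27 and 9.98 in Ex against 11.08 and 10.87 in Sed, and was the only EMR named for a member. Its difference was -0.85 (SE 0.215; 0.556-fold; limma adjusted p = 0.000309). A hypoacetylated EMR of 38273 bases named Mir1a-1hg, chr2:180358142-180396414, covered the Mir1a-1 hairpin, at 11.39 and 11.18 in Ex against 12.24 and 11.97 in Sed (-0.82, SE 0.215; 0.566-fold; limma adjusted p = 0.000419). At both, the replicates of Ex lay below those of Sed. Of the 2280 hypoacetylated EMRs, 99.7% passed the same test, their median difference was -0.76, and 26.1% and 31.3% had a more negative difference than these 2 regions, so both were ordinary members of their list. No member was among the 382 hyperacetylated EMRs.

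**Figure D5:**
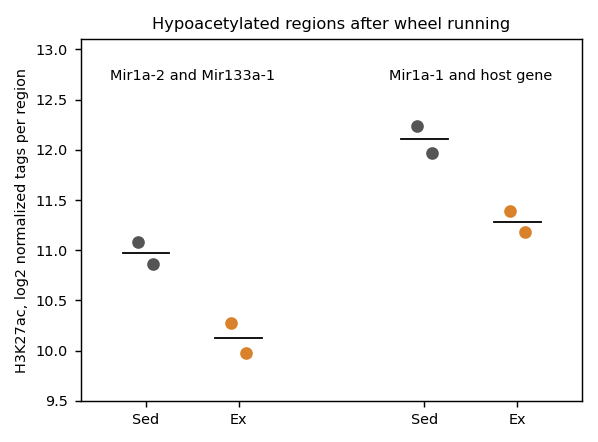
H3K27ac in log2 normalized tags per region, on an axis that does not start at 0, at the hypoacetylated regions over Mir1a-2 and Mir133a-1 (left) and over Mir1a-1 and its host gene (right). Points are the 2 libraries of each group and lines their means, and both Ex libraries lie below both Sed libraries at each region.

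Markers of fibers and of other cell types also differed between Sed and Ex, in both directions. The median percentile of the strongest H3K27ac peak per marker gene was 87.4 in Sed and 57.8 in Ex for fast fiber markers, 62.9 and 82.7 for endothelial, 56.2 and 75.1 for fibroblast and 17.8 and 36.3 for leukocyte markers, with peaks at 4 and 5 of 5, 4 and 4 of 4, 3 and 3 of 3 and 3 and 4 of 4 genes. For slow fiber markers the medians were 24.77 in Sed and 29.84 in Ex, with peaks at 1 and 2 of 4 genes. Satellite cell markers had 15.99 and 9.09 (2 and 1 of 2 genes), and adipocyte markers 30.33 and 24.01 (1 and 2 of 2). From qPCR of immune, vascular, satellite cell and myogenic markers, the paper reports no change in the cell makeup of Ex muscle. The part of fibers and other cell types in the lower acetylation of the miR-1 clusters was not tested. In mTg, none of the 1828 hyperacetylated and 844 hypoacetylated PGC1α-modified regions (PMRs) was named for a member or lay within 25 kb of one.

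Genes that make, drive or respond to these microRNAs were counted beside them, and genes with more peaks have more chances to be counted. For hypoacetylated EMRs the share over 14815 genes with an H3K27ac peak was 10.6%. Of the 8 transcription factors known for driving the myomiRs, 4 had one. They were Myod1 and Myf6, basic helix-loop-helix factors that bind E-boxes (-0.96 at chr7:46369116-46379091, and -0.90 at the widest of 3 regions of Myf6), and Mef2a and Mef2c, MADS box factors (-0.81, and -0.85 and -0.51). Of 9 genes of microRNA processing, 1 had one, Dicer1, the nuclease that cuts hairpins to mature length (-0.63). Of 11 described targets, 3 did: Hdac4, a histone deacetylase repressed by miR-1 (-0.91 and -0.78), Sox6, a repressor of slow fiber genes targeted by miR-499 and miR-208b (8 regions, -0.51 to -1.04), and Pax3, a factor of muscle precursors (-0.71 and -0.59). Hyperacetylated EMRs were at 2.34% of genes and at no gene of the 3 lists.

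Among PMRs the share over 15286 genes was 9.22% for hyperacetylated and 4.38% for hypoacetylated regions. Of 10 described targets with a peak, Sox6 had hyperacetylated regions (0.46 and 0.83), and Hdac4 (-0.72), Sox6 (-0.79), Gja1, a gap junction gene (-0.46), and Utrn, a relative of dystrophin (-0.52), had hypoacetylated ones. Dicer1 had 3 hypoacetylated PMRs (-0.69, -0.78 and -0.79) and was the only gene of the processing list with one. None of the 7 transcription factors with a peak had a PMR of either kind. Of the host and neighbour genes Myh7, Myh6, Myh7b and Mib1, only Mib1 gave its name to an H3K27ac peak in the groups compared. No EMR or PMR was named for it, but the hypoacetylated EMR named Mir1a-2 lies inside Mib1. The host gene Mir1a-1hg, not on that list, had the hypoacetylated EMR given above.

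MED1, a Mediator subunit that bridges enhancers to the polymerase, was mapped in 1 library per muscle. In Quad it had a site at the start of Mir1a-1hg, chr2:180385579-180385789, overlapping the end of the promoter window printed above, with a peak score of 27.5, the 24th of 3593, and at Mir1a-2, chr18:10787555-10787765, with 16.6, the 104th. The site in Myh7b exon 29, whose sequence is also printed, scored 6.39, the 1738th, and lay inside the H3K4me2 peak of Mir499. In all, 3.76% of Quad H3K27ac peaks and 3.52% of Quad H3K4me2 peaks held a MED1 site. No MED1 site lay at a member region in Sol (4070 sites), Dia (2145) or EDL (834). There, 5.34%, 4.16% and 1.12% of all H3K27ac peaks held a site, and with 6, 5 and 2 H3K27ac peaks named for a member a count of 0 is not a result about the members.

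Open chromatin in Quad, from the list of 3 pooled control ATAC libraries with 44911 peaks, had 5 sites in the Mir1a-1 domain, the strongest at chr2:180376789-180376983 (signal 26.5, the 1666th) and another at the Mir1a-1hg promoter, chr2:180385322-180385516 (22.3, the 2654th). 3 sites lay in the Mir1a-2 region, with signals from 12.8 to 16.5. The site in the Mir133b region, chr1:20691472-20691666, was weak (3.35, the 42725th), as was one upstream of Mir206 (3.92). An ATAC site was held by 57.2% of all Quad H3K27ac peaks, so its presence sets no member apart. NFAT, a calcium-controlled factor, had 1 site of its 485 in Quad within the Mir1a-1 domain, chr2:180392352-180392558 (score 9.54, the 439th). Of all Quad H3K27ac peaks 0.0464% held one, but their median width was 1552 bases, so that share is no like comparison for so wide a domain. Of the 5 Quad H3K27ac peaks named for a member, 0 held one. Of the 8 Quad H3K4me2 peaks named for a member, 1 did, beside 0.0391% of all. That peak, named Mir1a-1, was 6234 bases wide against a list median of 1319, so this share is no like comparison either. The site had no match to the NFAT core GGAAA, which 59.0% of Quad NFAT peaks held. In Sol, where 39661 NFAT sites were listed with many tied scores, 3.02% of H3K27ac peaks held one, and 0 of the 6 named for a member did. The Sol sites nearest to hairpins lay just past Mir133a-2 (chr2:180398969-180399171, 16.4, the 6768th) and 4061 bases from the start of Mir208b (12.3, the 35778th), and the site at the Myh7b promoter (chr2:155610995-155611197) had the same low rank.

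Mir1a-2 was the only member to name an H3K27ac peak in all 8 groups, so its profile, the percentile of its strongest peak per kb in each group, was set beside those of the 9524 other genes with a peak in all 8. The closest by Pearson's r over the 8 groups were Asb14 (0.997), which encodes an ankyrin repeat and SOCS box protein, Nrap (0.996), which encodes an actin-binding protein of muscle, and Asb11 (0.996). The correlation is a description over 8 groups that share the Ex minimum, where Asb14 fell to the 67.6th, Nrap to the 76.0th and Asb11 to the 29.2nd percentile. Of the 9524 genes, 390 (4.09%) had an r over 0.9.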

How the data were processed

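Per the labels and the methods, the authors aligned reads to mm10 with Bowtie (Bowtie2 for ATAC-seq), kept 1 tag per position in HOMER tag directories and called histone peaks over both replicates of a group against input, at 2-fold enrichment and an FDR of 0.05 with DESeq2. The deposited tag columns are on a log2 scale, taken to be DESeq2's regularized logarithm computed within each list, and per the file headers scaled to total tags in the peak lists but not in the differential lists. The deposited fold over input (log2) and adjusted p-value of each peak call were used only as filters in alternatives, and those of the differential lists, which hold the authors' comparisons, were not used. The deposited MED1 and NFAT lists give a peak score, and the deposited ATAC list gives a signal in scaled tags, both used only to rank sites. The ATAC lists of exercised and PGC1α mice and the footprint lists, whose build is not mm10, were not used here.

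Samples were grouped by title, genotype, treatment and tissue in the labels. Levels were divided by width, centred and compared without a test. The choice of another centring, no division by width and each replicate left out were alternatives, as were stricter peak calls and naming by distance, and taking levels over input was added after the data were seen. Peaks of a mark were merged into regions where they overlapped by at least 1 base. In the differential lists, levels were compared with limma 3.58.1 (R 4.3.3, two-sided moderated test, Benjamini-Hochberg over the list). Tested on simulated data for the hypoacetylated Ex list of 2280 regions, it recovered 65% of regions changed by 1 and 100% of those changed by 2 on the log2 scale and called 0.192% of the others. In the simulation a minority of regions changed, in both directions. In the real list nearly all were lower in Ex, so these rates do not describe the test as used there. Sequences came from RefSeq tables and GRCm38.p6. Named genes were all 8 members, their host and neighbour genes, genes of other peaks within 25 kb and the 3 genes most like each member with an H3K27ac peak in all 8 groups. Members and gene lists were chosen with earlier results of these data known. Depth is total tags per library in the file headers, and no file holds tag counts, so no counting interval is given and the precision rests on 2 replicates.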

Additional observations from a re-analysis of the deposited data

How the results depend on the processing

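With an adjusted p-value under 0.001 for the peak call, 21 of the 35 H3K27ac and 27 of the 44 H3K4me2 peaks named for a member were left, and counting peaks within 25 kb of a member instead of by name gave 65 and 74. A 4-fold enrichment over input left 34 and 41, and merging across gaps of 1 kb gave 9 and 11 regions in place of 10 and 13. Over the 6 pairs of groups, member regions over 2-fold apart were 2 of 19 for H3K27ac and 1 of 21 for H3K4me2. Not dividing by width gave 4 and 4, centring on the whole list 0 and 1, and levels over input 2 and 0. The 2 over input were not the same 2, since the Mir133b region in Sol against Quad dropped out and another difference came in. Leaving out a replicate gave 0 to 2 for H3K27ac (0 without replicate 2) and 0 to 1 for H3K4me2 (0 without replicate 1). The H3K4me2 difference at the Mir1a-2 region in mTg against Wt reversed to 0.83 over input, and the cause was not tested. The exercise difference at Mir1a-2 ran from -0.996 to -0.70 with single libraries left out, the smallest without Ex replicate 2. It stood at -0.85 with a trended prior (limma adjusted p 0.00282). The replicate numbers are names here, with 2 pairs and a correlation of 0.106 between same-numbered libraries. With the replicate block the value was -0.85 and the limma adjusted p 1.40e-06. With the trended prior or the block, all 2280 regions of the list passed. The authors chose that list from these same libraries, so passing is no independent evidence. No member lay in a PMR, so that comparison gave no value.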
